A study of Canis lupus familiaris with 2 samples.

Results

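Cholesterol is built from acetyl-CoA in a long series of enzyme steps that runs through mevalonate, farnesyl diphosphate, squalene and lanosterol. Its supply is held by a feedback loop in the endoplasmic reticulum (ER). SCAP, a sterol sensor, escorts the SREBP transcription factors to the Golgi, where a pair of proteases releases them to switch on the genes of the pathway, and INSIG proteins hold SCAP back when sterols are plentiful. In kidney epithelium, as in other cells, cholesterol serves mainly as a membrane component. The genes described here are the enzymes of this pathway in order of their steps and the genes for sterol sensing, uptake, trafficking and storage. They were chosen by gene symbol, with the FPKM ratios of the same cultures already known, so the ratios are given as a description and support no test. Of 31 listed symbols, 30 were among the 23510 features, namely all 19 synthesis enzymes, all 7 feedback genes and 4 of the 5 trafficking, uptake and storage genes. SOAT1, which esterifies cholesterol for storage, was not analysed here.

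The RNA came from Madin-Darby canine kidney (MDCK) cells, an established dog kidney line that forms a columnar epithelium in culture. The cells were plated on culture inserts in Eagle's medium with fetal calf serum, which carries lipoprotein cholesterol, and RNA was taken on day 3. The treatments were 2 cmH2O, which the labels also call no pressure, and 50 cmH2O, set by medium 2 or 50 cm high. The higher column also put more serum-containing medium above the cells, so pressure and amount of medium cannot be told apart. Each medium height was represented by 1 culture, so no value below has a replicate, no spread between cultures could be measured and no difference was tested. FPKM values are read numbers corrected for transcript length and library size, which allows genes to be compared with each other within a culture. In bulk RNA, fewer cells that express a gene and less RNA per cell cannot be told apart.

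Of 10 kidney epithelial markers, 9 were listed, and the 8 above 1 FPKM in both cultures had a median ratio of 0.948. CDH1 (E-cadherin) was at 211 FPKM in 2-cm-high and 229 FPKM in 50-cm-high medium, PAX8 at 65.1 and 57.6 FPKM, and CLDN2, a claudin of leaky tubules, at 35.5 and 17.2 FPKM. CDH16, the kidney-specific cadherin, was low, at 1.96 and 0.676 FPKM. EPCAM, KRT8, KRT18, PAX2 and TJP1 had ratios of 0.852, 0.952, 0.944, 0.987 and 1.04. The 9 listed markers of endothelial, blood, stromal, muscle and glomerular cells summed to 0.465 and 0.381 FPKM, and PECAM1, PTPRC and NPHS1 were listed at 0 in both cultures. Of the 8 kidney markers above 1 FPKM in both cultures, CLDN2 alone was more than 2-fold lower (ratio 0.485), against 1.28% of all features. CDH16 was below 1 FPKM in 50-cm-high medium and was not counted. The part of CLDN2 and CDH16 in the values of the sterol genes described below was not tested.

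All 30 sterol genes exceeded 1 FPKM in both cultures, the minimum for a ratio. The number of reads is unknown, and the lowest FPKM values give only a rough guide to what a few reads are worth. For 219 of 574 features under 0.1 FPKM, the ratio of 50-cm over 2-cm FPKM lay within 0.2% of 1.098, the ratio that equal small numbers of reads give, and the 2-cm FPKM of these features had a median of 0.0379. The lowest value of any sterol gene, 2.94 FPKM for MYLIP in 50-cm-high medium, was 30.3 times the highest of these features in that culture. Because the FPKM of 1 read depends on transcript length, this multiple does not give the number of reads for MYLIP. Of the sterol genes, 29 were above 5 FPKM in both cultures.

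The synthesis enzymes were lower as a group in 50-cm-high medium. Of the 19 enzymes, 17 had a ratio below 1, against 47.4% of all 11057 features above 1 FPKM in both cultures. For 6 enzymes the ratio was below 0.5, against 1.28% of all features, and for none was it above 2, against 0.389%. A ratio below 1/1.5 was found for 15 enzymes, against 5.06% of all features. The median ratio of the enzymes was 0.547 (log2 ratio -0.87) and that of all features was 1.01 (log2 ratio 0.01). Because the genes were chosen with these ratios known, the counts describe the list and nothing more can be read from them. Among the 6234 features whose geometric mean FPKM lay within the range of the enzymes, 12.2 to 311, ratios below 0.5 were rarer, at 33 features or 0.529%, and 6 of those 33 were synthesis enzymes.

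**Figure D1:**
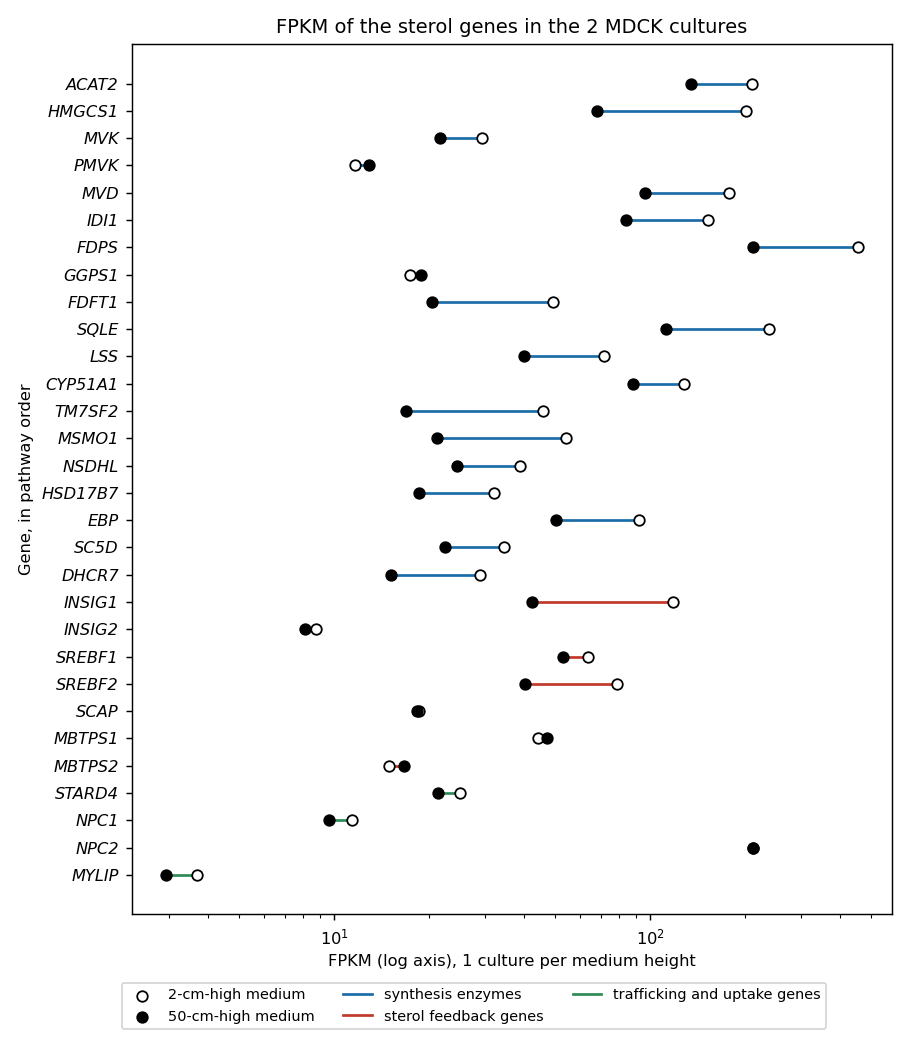
FPKM of the 30 sterol genes in the 2-cm-high-medium culture (open circles) and the 50-cm-high-medium culture (filled circles), on a log axis and in pathway order, with 1 culture per medium height. The filled circle lies to the left of the open one for 17 of 19 synthesis enzymes, and PMVK and GGPS1 are the exceptions.

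The first steps join acetyl-CoA units and lead to mevalonate. ACAT2, here the cytosolic acetyl-CoA acetyltransferase and not the cholesterol-esterifying enzyme that once shared its name, was at 210 FPKM in 2-cm-high and 135 FPKM in 50-cm-high medium, a ratio of 0.644. HMGCS1, which adds the next acetyl unit to make HMG-CoA, went with it at nearly the same level in 2-cm-high medium, 202 FPKM, but was at 67.8 FPKM in 50-cm-high medium. Its ratio of 0.336 was the lowest of all 30 genes and had rank 14 from the lowest among the 11057 features. The level of HMGCS1 relative to ACAT2 was thus 0.962 at the low medium height and 0.502 at 50 cm.

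Mevalonate is then phosphorylated and decarboxylated to the isoprene unit from which all later intermediates are made. MVK, the kinase that acts first on mevalonate, was at 29.3 and 21.7 FPKM in 2-cm-high and 50-cm-high medium, a ratio of 0.741. PMVK, the next kinase, had 11.6 and 12.9 FPKM and a ratio of 1.11, the highest among the enzymes. MVD, the decarboxylase, was at 178 and 96.7 FPKM (ratio 0.542). IDI1, which isomerizes the isoprene unit, was at 153 and 83.8 FPKM (ratio 0.547). Of these consecutive kinase and decarboxylase steps, MVK and MVD were lower in 50-cm-high medium and PMVK was nearly level. The log2 ratio of PMVK, 0.15, lay between the 25th and 75th percentiles of all features (-0.17 and 0.17).

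At farnesyl diphosphate the pathway divides between sterols and the isoprenoids used for protein prenylation, dolichol and ubiquinone. FDPS, which makes farnesyl diphosphate, was the most abundant enzyme gene in both cultures, at 455 FPKM in 2-cm-high and 212 FPKM in 50-cm-high medium (ratio 0.467). GGPS1, which extends it to the geranylgeranyl form for prenylation and so leaves the sterol route, was at 17.4 and 18.8 FPKM (ratio 1.08). FDPS was 26.1 times the level of GGPS1 in 2-cm-high medium and 11.3 times in 50-cm-high medium. On the sterol side, FDFT1, the squalene synthase that commits farnesyl diphosphate to sterols, was at 49.2 and 20.4 FPKM (ratio 0.414). SQLE, which oxidizes squalene and is a rate-controlling enzyme, was at 239 and 113 FPKM (ratio 0.473). FDPS, FDFT1 and SQLE, which act in a row, were all more than 2-fold lower, while the branch enzyme beside them was not.

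From squalene epoxide the ring system is closed and then trimmed. LSS, which forms lanosterol, was at 71.3 FPKM in 2-cm-high and 39.98 FPKM in 50-cm-high medium (ratio 0.561). CYP51A1, the cytochrome P450 that removes the first methyl group, was at 129 and 88.5 FPKM, and its ratio of 0.689 was the closest to 1 of the enzymes from SQLE onward. TM7SF2, the reductase that acts on its product, was at 45.99 and 16.9 FPKM. Its ratio of 0.367 was the next lowest after HMGCS1 among the enzymes, so of the steps from SQLE onward these neighbours had the ratios closest to and farthest from 1.

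MSMO1, NSDHL and HSD17B7 act in turn to remove the remaining pair of methyl groups. MSMO1, the oxidase, was at 54.3 FPKM in 2-cm-high and 21.2 FPKM in 50-cm-high medium (ratio 0.390). NSDHL, the decarboxylating dehydrogenase, was at 38.9 and 24.5 FPKM (ratio 0.630). HSD17B7, the reductase that ends the cycle, was at 32.2 and 18.5 FPKM (ratio 0.575). All 3 were lower, and MSMO1 alone of them by more than 2-fold.

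The last enzymes move and set the double bonds of the sterol ring. EBP, the isomerase, was at 92.2 FPKM in 2-cm-high and 50.4 FPKM in 50-cm-high medium (ratio 0.546). SC5D, the desaturase, was at 34.5 and 22.4 FPKM (ratio 0.649). DHCR7, the reductase whose loss causes Smith-Lemli-Opitz syndrome, was at 29.01 and 15.2 FPKM (ratio 0.523). Among the enzymes, DHCR7 and MVD fell just short of the 2-fold limit, and SQLE and FDPS just passed it.

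**Figure D2:**
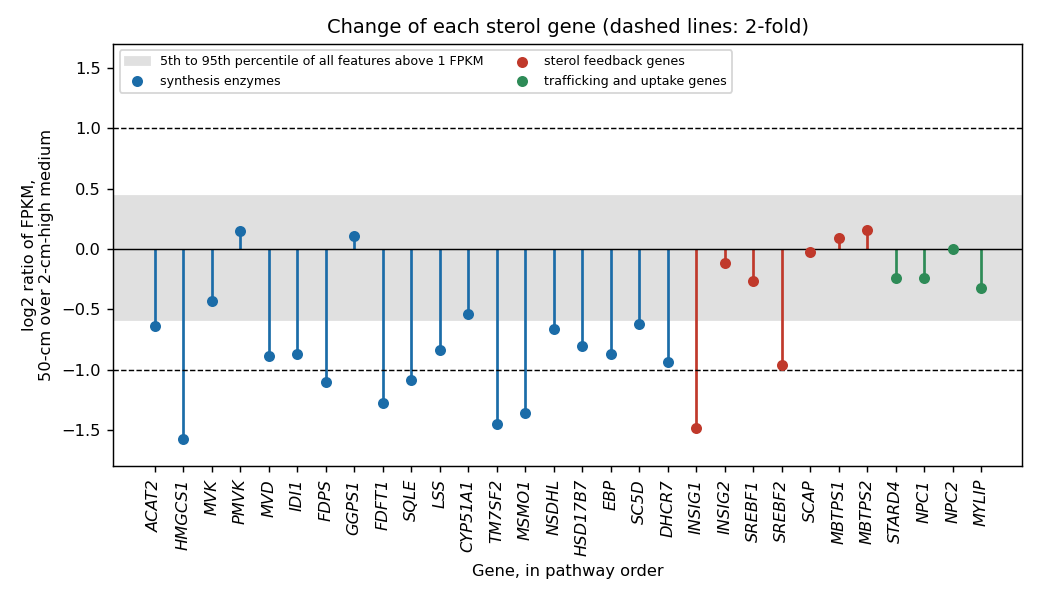
Log2 ratio of FPKM (50-cm over 2-cm-high medium, 1 culture each) of the 30 sterol genes in pathway order, with dashed lines at 2-fold and a grey band from the 5th to the 95th percentile of all 11057 features. The 7 points below the lower dashed line are HMGCS1, FDPS, FDFT1, SQLE, TM7SF2, MSMO1 and INSIG1.

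Ratios below 0.5, found for 1.28% of all features, occurred both before and after squalene. The 8 enzymes that lead to squalene had a median ratio of 0.545, with 3 below 0.5, and the 10 enzymes from SQLE onward had a median ratio of 0.553, also with 3 below 0.5. Divided more finely, 1 of the 6 enzymes up to IDI1 was below 0.5 (median ratio 0.595), 3 of the 4 from FDPS to SQLE with GGPS1 included (median ratio 0.4698) and 2 of the 9 from LSS onward (median ratio 0.561). Every enzyme from SQLE onward had a ratio below 1, against 47.4% of all features. These blocks are parts of a list chosen with its ratios known, so their counts are descriptions only. The summed level of the 19 enzymes was 2071 FPKM in 2-cm-high and 1080 FPKM in 50-cm-high medium, or 0.345% and 0.176% of the summed FPKM of all features. FDPS, HMGCS1 and SQLE made up 502 FPKM, or 50.7%, of the net decrease of 991 FPKM.

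The enzymes kept much of their order of abundance. FDPS was first in both cultures, PMVK last at place 19, and EBP, LSS and IDI1 kept places 8, 9 and 6. TM7SF2 lost most, from place 12 to place 17, and MVK gained most, from place 16 to place 12. HMGCS1 went from place 4 to place 7. Between the cultures, the log2 FPKM of the 19 enzymes correlated with a Pearson r of 0.951 and a Spearman rho of 0.909. The mean log2 FPKM and the log2 ratio had a Pearson r of -0.40 and a Spearman rho of -0.44 over the 19 enzymes. Over all 11057 features the values were 0.211 and 0.236. PMVK and GGPS1, the only enzymes with ratios above 1, were also the lowest in 2-cm-high medium, at places 19 and 18. Their weight in the values of the 19 enzymes was not tested. These correlations run across genes of the same pair of libraries, which are not independent replicates, and are given as descriptions.

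**Figure D3:**
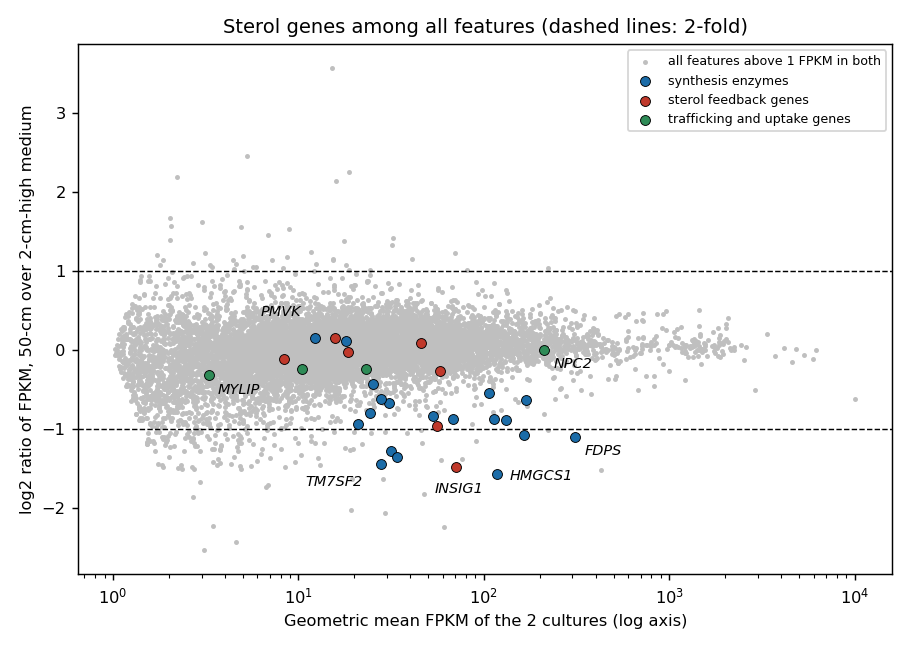
Log2 ratio of FPKM (50-cm over 2-cm-high medium) against the geometric mean FPKM of both cultures on a log axis, for all 11057 features above 1 FPKM in both (grey) and the sterol genes (coloured), with dashed lines at 2-fold. The 6 enzymes below the lower dashed line are among 33 features with such ratios in the FPKM range of the enzymes, and PMVK lies above 0.

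The feedback genes ran from a ratio of 0.357 to 1.11. Of the 7 genes, 5 had a ratio below 1, against 47.4% of all features, only INSIG1 was below 0.5, against 1.28%, and none was above 2, against 0.389%. The median ratio was 0.923. INSIG1, itself a target of SREBPs and the INSIG form that responds to sterols, was at 118 FPKM in 2-cm-high and 42.3 FPKM in 50-cm-high medium, a ratio of 0.357 and rank 21 from the lowest. INSIG2, the related form that holds SCAP in the same way, was at 8.75 and 8.07 FPKM (ratio 0.923). INSIG1 was 13.5 times the level of INSIG2 in 2-cm-high medium and 5.24 times in 50-cm-high medium, so the more abundant form was the one with the lower ratio.

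The SREBP genes also parted. SREBF2 encodes the form that mainly drives cholesterol genes and was at 78.4 FPKM in 2-cm-high and 40.2 FPKM in 50-cm-high medium (ratio 0.513). SREBF1 encodes the forms that mainly drive fatty acid genes and was at 63.7 and 53.1 FPKM (ratio 0.833). Their order was inverted between the cultures, with SREBF2 at 1.23 times SREBF1 in 2-cm-high medium and 0.758 times in 50-cm-high medium. With a ratio of 0.513, SREBF2 stood closest to the 2-fold limit of the genes that did not pass it. SREBF2 did pass the limit under quantile normalization (log2 ratio -1.02) and upper quartile scaling (log2 ratio -1.03).

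The machinery that carries and cleaves the SREBPs was nearly level. SCAP was at 18.6 FPKM in 2-cm-high and 18.3 FPKM in 50-cm-high medium (ratio 0.984). MBTPS1, the protease that cuts SREBPs first, was at 44.2 and 47.1 FPKM (ratio 1.06). MBTPS2, the protease that frees the factor within the membrane, was at 14.96 and 16.7 FPKM (ratio 1.11). SREBF2 mRNA was 4.22 times the level of SCAP in 2-cm-high medium and 2.202 times in 50-cm-high medium. These are RNA levels, and neither cleavage nor nuclear SREBP was measured.

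**Figure D4:**
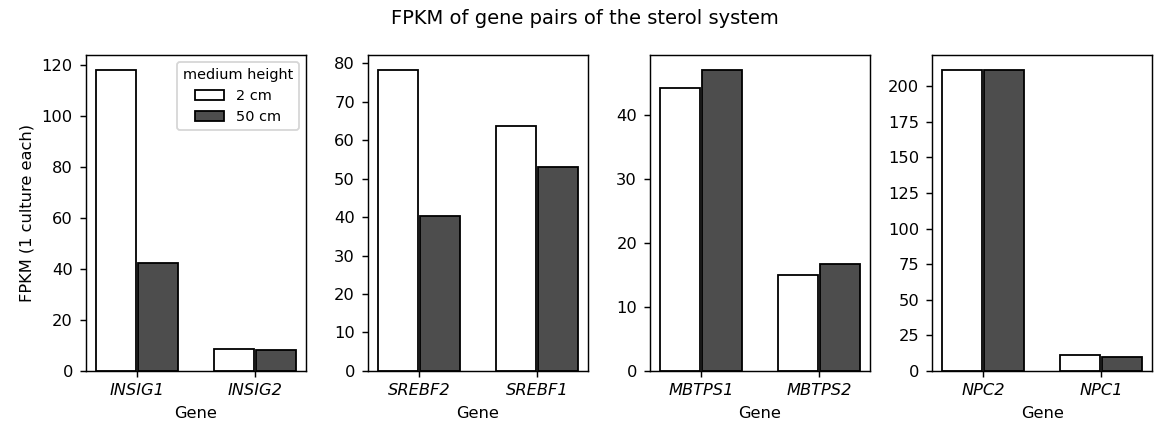
FPKM of gene pairs of the sterol system in 2-cm-high medium (open bars) and 50-cm-high medium (filled bars), 1 culture each, on linear axes that start at 0 and differ between panels. INSIG1 and SREBF2 are lower in 50-cm-high medium, whereas MBTPS1, MBTPS2 and NPC2 have bars of nearly equal height.

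The 4 trafficking and uptake genes all had ratios below 1, against 47.4% of all features, and only NPC2 was close to 1. The log2 ratios of STARD4, NPC1 and MYLIP (-0.24, -0.24 and -0.32) lay below the 25th percentile of all features (-0.17). STARD4, a cytosolic sterol carrier, was at 25.1 FPKM in 2-cm-high and 21.3 FPKM in 50-cm-high medium (ratio 0.847). NPC2, which lifts cholesterol out of lipoproteins in the lysosome, was at 212 FPKM in both cultures. NPC1, the membrane protein that receives it, was at 11.4 and 9.65 FPKM (ratio 0.845). MYLIP, a ubiquitin ligase that sends lipoprotein receptors for degradation, was at 3.68 and 2.94 FPKM (ratio 0.7997). The median ratio of the 4 genes was 0.846. None was past 2-fold, against 1.28% of all features lower and 0.389% higher, so this absence in a short list says little.

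Other sterol transport genes, a list of 29 of which 23 exceeded 1 FPKM in both cultures, had a median ratio of 0.933. None passed 2-fold, against 1.28% of all features lower and 0.389% higher. The lowest ratio was that of NCEH1, a hydrolase of cholesterol esters, at 3.81 and 2.19 FPKM (ratio 0.575), and the highest that of OSBPL10, an oxysterol-binding protein relative, at 1.61 and 2.12 FPKM (ratio 1.31). SOAT2, the relative of SOAT1, was at 0.0546 and 0.0599 FPKM, a ratio of 1.098 that equal small numbers of reads also give.

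Of the 16 genes that use the isoprenoid branch for prenylation, dolichol, ubiquinone and related products, 5 had a ratio below 1. The share over all features was 47.4%. The median ratio of the 16 genes was 1.12, against 1.01. None passed 2-fold, against 1.28% of all features lower and 0.389% higher. PDSS1, which makes the ubiquinone side chain, had the highest ratio, at 7.001 and 9.73 FPKM (ratio 1.39), and FNTB, the beta subunit of farnesyltransferase, the lowest, at 6.23 and 4.93 FPKM (ratio 0.791). The 11 genes of ER-associated degradation and SREBP turnover, among them ligases that act on sterol enzymes and INSIG, had a median ratio of 1.04. None of the 11 was past 2-fold, against the same shares of all features. They ranged from ERLIN1, an ER membrane scaffold, at 19.3 and 18.3 FPKM (ratio 0.947), to AUP1, a partner of ER ligases, at 99.4 and 125 FPKM (ratio 1.26).

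Of 12 genes of the oxysterol receptors LXR, their partners and targets, and oxysterol metabolism, 7 exceeded 1 FPKM in both cultures, and 3 were listed at 0 in both. The 7 genes had a median ratio of 0.766, and 5 of them had a ratio below 1, against 47.4% of all features. None was past 2-fold, against 1.28% of all features lower and 0.389% higher. The genes with the lowest and highest ratio were both near the FPKM minimum. NR1H3, which encodes LXR alpha, was at 2.26 and 1.25 FPKM (ratio 0.554), and CYP7B1, an oxysterol hydroxylase, was at 1.21 and 1.40 FPKM (ratio 1.16).

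Fatty acid synthesis genes that SREBPs are known to drive were nearest to the cholesterol enzymes. All 11 members above 1 FPKM in both cultures had a ratio below 1, against 47.4% of all features, with a median of 0.607. More than 2-fold lower were 3 of them, against 1.28% of all features. They were LPIN1 (ratio 0.306), FADS2, a fatty acid desaturase (ratio 0.380), and SCD, the stearoyl-CoA desaturase (ratio 0.495). LPIN1 is a phosphatidate phosphatase and acts in glycerolipid rather than fatty acid synthesis. Without LPIN1, 2 of 10 genes were more than 2-fold lower and the median log2 ratio was -0.61, against -0.72 with it. MID1IP1, an activator of acetyl-CoA carboxylase, had the highest ratio of the list, 0.888. The difference between this list and the cholesterol enzymes was not tested.

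**Figure D5:**
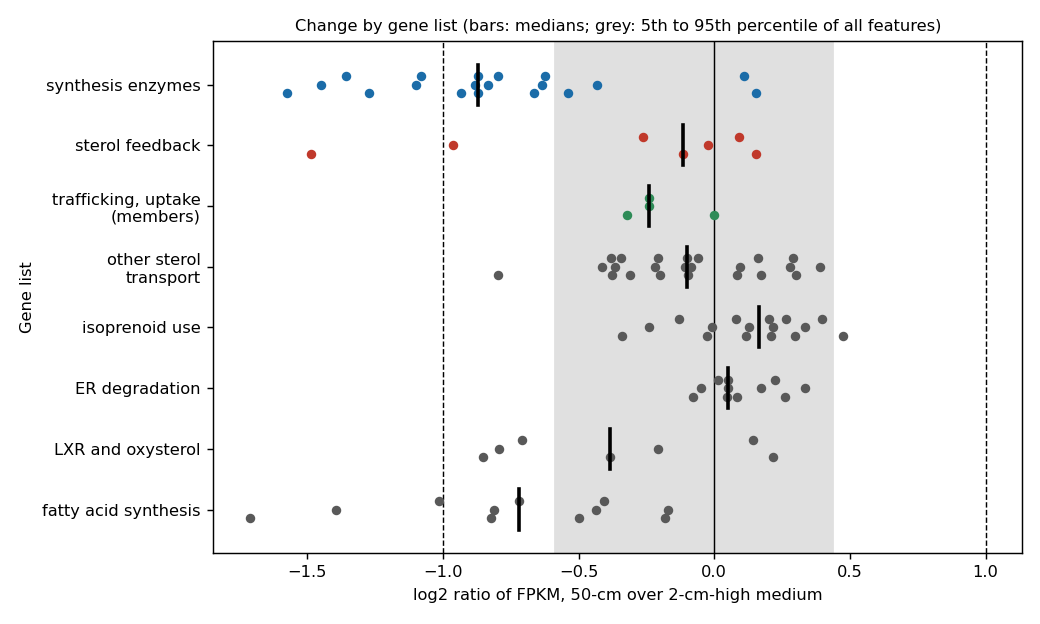
Log2 ratio of FPKM (50-cm over 2-cm-high medium, 1 culture each) of each gene above 1 FPKM in both cultures, by gene list, with the list median as a black bar, dashed lines at 2-fold and a grey band from the 5th to the 95th percentile of all 11057 features. The medians of the synthesis enzymes (-0.87) and the fatty acid synthesis genes (-0.72) lie outside the band, and those of the other lists within it. The band covers single features and does not measure how far list medians vary.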

How the data were processed

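MDCK RNA from 1 culture per medium height (2 and 50 cm, day 3) was analysed. Per the labels and the methods of the study, the authors made stranded mRNA libraries, mapped single-end reads to the dog genome build CanFam3.1 (TopHat2 2.0.13, SAMtools 0.1.19, Bowtie2 2.2.3) and deposited FPKM values from Cuffnorm 2.2.1. The gene annotation and the Cuffnorm scaling are not given in the sources used here. FPKM depends on both, and a change in abundant genes shifts the others. Read counts are unknown, so no interval was computed.

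For each feature that exceeded 1 FPKM in both cultures, the 50-cm value was divided by the 2-cm value with no pseudocount, and a limit of 2-fold was set. With 1 sample per group, no test was made, and lists are given as counts and medians beside those of all features. The members and lists were chosen with earlier results of these data known. Named are all members found and, in the other lists, genes past 2-fold and the highest and lowest ratio; the kidney markers and SOAT2 were added after their values were seen. Alternatives were other FPKM minima, pseudocounts, scalings and a fold limit of 1.5. All 31 member symbols are RefSeq symbols of the dog assembly UU_Cfam_GSD_1.0, used for names only. Some genes of the planned lists are not reported here and were left out of the counts. A planned promoter motif search was not run. The scripts (Python 3.11.15, numpy 2.4.6, pandas 2.3.3, matplotlib 3.10.9) were tested on simulated data.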

Additional observations from a re-analysis of the deposited data

How the results depend on the processing

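Under the 5 alternatives that alter a gene's ratio (2 pseudocounts, 3 scalings), 149 of 150 log2 ratios of the 30 sterol genes moved by less than 0.1, the exception being MYLIP under quantile normalization (-0.17). None of the 30 genes changed sign under these 5. The feedback genes more than 2-fold lower numbered 2 in place of 1 under quantile normalization and under upper quartile scaling, where SREBF2 passed the limit. With a fold limit of 1.5, 15 of 19 synthesis enzymes in place of 6 were past it and lower, and 2 of 7 feedback genes in place of 1. The numbers were 3 of 7 LXR and oxysterol genes and 1 of 23 other sterol transport genes, each in place of 0. For the fatty acid synthesis genes it was 6 of 11, in place of 3. Over all 11057 features, 559 (5.06%) were past this limit and lower. Above 5 FPKM, where LPIN1 (3.77 FPKM in 50-cm-high medium) was left out, 2 of 10 fatty acid synthesis genes were more than 2-fold lower, in place of 3 of 11. The median log2 ratio of the LXR and oxysterol genes was -0.21 with no FPKM minimum, against -0.38. That of the fatty acid synthesis genes was -0.61 with no minimum and with a minimum of 5 FPKM, against -0.72. Over all 11057 features, 142 were more than 2-fold lower and 43 higher, and with a pseudocount of 1 these counts were 68 and 24. Quantile normalization gave 101 and 57 of 11074 features, and upper quartile scaling 168 and 33 of 11046. Above 5 FPKM in both cultures, the counts were 43 and 19 of 8751 features. They were 293 and 91 of 11536 features above 1 FPKM in at least one culture, and 765 and 451 of 14306 with no minimum. The synthesis enzymes were below the median of all features by 0.88 on the log2 scale, and the background restricted to their FPKM range, chosen after seeing the data, gave 0.92. Depth limits the low genes most, and with 1 culture per medium height no value could be set against replicate error. No paired analysis was possible because each group has 1 sample.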
